A study of Rattus norvegicus with 24 samples.

Results

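Glp1r and Gipr encode the receptors of the incretin hormones glucagon-like peptide-1 (GLP1) and glucose-dependent insulinotropic polypeptide (GIP). These 2 genes, of 32623 in the count table, are described here across strain and side in the rat carotid body (CB), together with Chga and Chgb, which mark its chemosensory glomus cells. The members, the rows ENSRNOG00000001152 (Glp1r) and ENSRNOG00000015860 (Gipr), were chosen by their measured difference between strains over these libraries. The left and right CBs of 6 Wistar Kyoto (WKY/NHsd) and 6 spontaneously hypertensive rats (SHR/NHsd) were sequenced separately, 24 polyadenylated RNA libraries in all, from male rats aged 12 to 14 weeks. WKY is the normotensive control strain and SHR an inbred model of hypertension, so strain here means every genetic difference between these 2 colonies. Neither strain carried a transgene or received a drug, and all rats were perfused with cold saline before the CBs were cut out, so each library is whole tissue with vessels, connective tissue and glomus cells mixed. In whole tissue, fewer cells of a type and less RNA per cell cannot be told apart.

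Incretins are released from the gut after a meal and raise insulin secretion from the pancreatic beta cell in proportion to glucose. GLP1R and GIPR are class B1 G protein-coupled receptors, and both signal mainly through the stimulatory G protein and cyclic AMP. The CB lies at the fork of the common carotid artery, where its glomus cells sense blood oxygen and other metabolic signals and drive sympathetic nerve activity. CHGA and CHGB are granins, acidic proteins of the dense-core granules from which glomus cells release transmitters.

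Library totals ran from 9198341 to 13655419 counts over the 24 libraries, with medians of 9889222.5 in WKY and 9781836 in SHR. The right CB of SHR34 stood apart. It held 437 Chga and 31 Chgb counts, against at least 4315 and 4141 in every other library, and its summed glomus marker level was 98.5 CPM (counts scaled to a common library size) against rat means of 1205 to 2292. Its adipocyte list summed to 455 CPM, against rat means of 55.9 to 126, and its mast cell list to 35.5 CPM against 1.44 to 15.5. The study's own strain table holds the other 23 libraries, and these are the set used here unless all 24 are named. CPM are scaled by the trimmed mean of M-values (TMM). The defining markers Chga, Chgb and Dbh were present in each of the 23 libraries.

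Before the values, the sequence upstream of Glp1r is shown, because this gene has the wider strain difference of the pair. The 250 bases before its start were taken from RefSeq on GRCr8, at chr20:8973143-8973392 on the + strand. GRCr8 is a Brown Norway assembly, so the letters are those of neither strain, and no variant of WKY or SHR was read. Capitals mark the GC box, GGGCGG on either strand, the motif that Sp1-type factors are known to bind.

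Glp1r: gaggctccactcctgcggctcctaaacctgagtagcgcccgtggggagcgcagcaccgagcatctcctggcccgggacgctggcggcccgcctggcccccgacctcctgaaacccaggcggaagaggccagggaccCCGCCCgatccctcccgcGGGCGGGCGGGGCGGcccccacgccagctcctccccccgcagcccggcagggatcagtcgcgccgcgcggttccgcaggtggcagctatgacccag

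The window held 4 GC boxes, which in part overlap. At least 1 was present in 30.5% of the 33469 rat promoters of the same length, and 4 or more in 3.67%. Its GC content was 75.6%, against a median of 51.2% over those promoters, and 96.9% of them were lower. The TATA box TATAAA (12.9% of promoters, both strands), the cyclic AMP response element TGACGTCA (1.59%) and its shorter core TGACG (18.2%) were not found in these letters. Gipr and Chga had no entry in the promoter table.

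Glp1r was readily counted in WKY CBs and close to the counting limit in SHR CBs. In the left CBs of WKY rats it had 97 counts in rat 32, 101 in rat 33, 96 in rat 34, 108 in rat 36, 57 in rat 37 and 132 in rat 41. In the right CBs of the same rats it had 137, 110, 74, 109, 169 and 126 counts. The left CBs of SHR held 2 counts in rat 30, 0 in rat 31, 4 in rat 33, 8 in rat 34, 9 in rat 36 and 9 in rat 37. Their right CBs held 10, 10 and 4 counts in rats 30, 31 and 33, and 10 and 1 in rats 36 and 37. Every SHR library was therefore below every WKY library, and 3 of the 11 SHR libraries held no more than 3 counts, the number taken as the detection floor. A count of 0, as in the left CB of SHR31, has an exact two-sided Poisson 95% interval of 0 to 3.69 counts. Such intervals cover counting error only.

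Averaged over the sides of each rat, Glp1r stood at 10.8 ± 1.17 CPM in the 6 WKY rats (SD). In the 6 SHR rats it was 0.607 ± 0.28 CPM, which is 5.6% of the WKY level. In edgeR's quasi-likelihood fit over 14258 genes with side as a covariate, the log2 fold change of SHR against WKY was -4.17 (SE 0.257). The fit has no term for the rat, so it takes the CBs of a rat as independent. Only 6 genes had a lower value, and the median of all genes was 0.01. Because this contrast chose the gene, these values are a description and no test is attached. As background, 9.85% of genes were called lower in SHR at an adjusted p of 0.05, 1.08% had every SHR library below every WKY library, and 3.68% had every SHR rat below every WKY rat.

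Gipr was present in both strains and lower in SHR, by much less. WKY left CBs had 166 counts in rat 32, 170 in rat 33, 103 in rat 34, 140 in rat 36, 199 in rat 37 and 137 in rat 41, and the right CBs 109, 176, 78, 132, 182 and 128. SHR left CBs had 62 counts in rat 30, 106 in rat 31, 86 in rat 33, 59 in rat 34, 109 in rat 36 and 122 in rat 37. The right CBs had 82, 150 and 82 counts in rats 30, 31 and 33, and 63 and 80 in rats 36 and 37. The strains overlapped: WKY34, the lowest WKY rat with a mean of 9.05 CPM, lay below SHR31 at 11 CPM, SHR37 at 9.2 CPM and SHR36 at 9.06 CPM. The other 3 SHR rats were below all WKY rats.

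The mean of Gipr over the 6 WKY rats was 14.3 ± 3.74 CPM (SD). Over the 6 SHR rats it was 8.47 ± 1.61 CPM, or 59.4% of that. The log2 fold change of Gipr was -0.72 (SE 0.143, again with no term for the rat), and 2.95% of genes had a lower one. Counts summed per rat gave -0.74. These values too are a description, since the strain contrast was part of the choice. The Gipr difference is also the less firm of the pair. The log2 value ran from -0.83 without WKY34 to -0.62 without WKY37, and with all 24 libraries it was -0.85 with a wider SE of 0.279, in a fit that called 5.04% of genes lower. In the RefSeq annotation the Gipr gene overlaps its neighbour Eml2. The strand setting of the counting is not given in the sources used here, so how reads of the shared stretch were counted is not known.

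**Figure D1:**
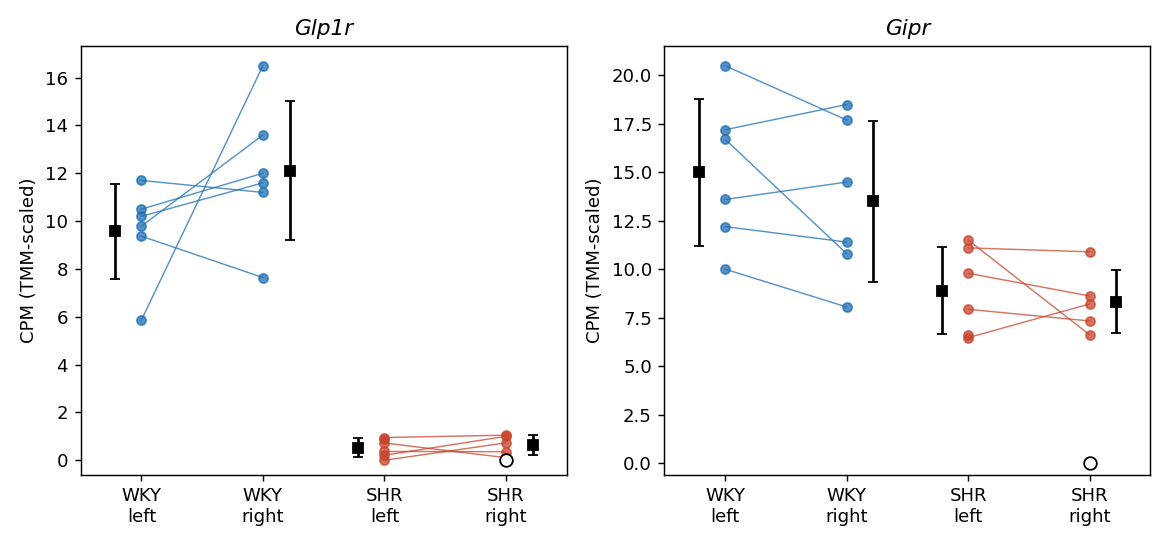
CPM of Glp1r (left panel) and Gipr (right panel) in each CB library, by strain and side. Coloured points are libraries, lines join the CBs of 1 rat, black squares with bars are the mean ± SD of 6, 6, 6 and 5 libraries, and the open circle is the right CB of SHR34, kept out of the means. Glp1r lies between 5.86 and 16.5 CPM in WKY and between 0 and 1.05 CPM in SHR, whereas the Gipr ranges of the strains (8.05 to 20.5 and 6.47 to 11.5 CPM) overlap.

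**Figure D2:**
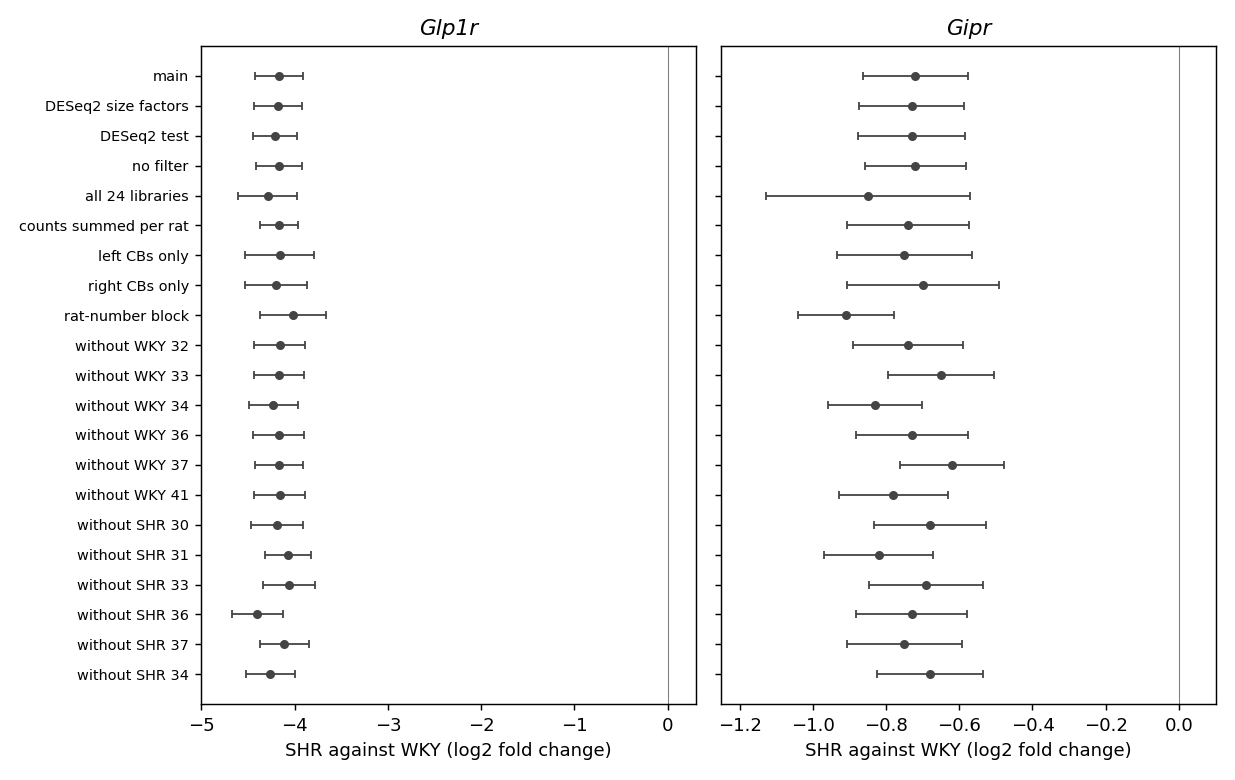
Log2 fold change of SHR against WKY for Glp1r (left panel) and Gipr (right panel) under each way of fitting the counts. Points are estimates and bars their SE, the horizontal scales differ, and "main" is edgeR on 23 libraries. Glp1r stays between -4.40 and -4.02 and Gipr between -0.91 and -0.62. The values -4.02 and -0.91 come from the fit with the rat number as a block, which rests on rats whose number is shared between the strains.

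Ordered by mean level, Glp1r was highest in the right CBs of WKY at 12.1 ± 2.91 CPM (n = 6 libraries). It followed in the left CBs of WKY at 9.57 ± 1.98 CPM (n = 6), the right CBs of SHR at 0.649 ± 0.409 CPM (n = 5) and the left CBs of SHR at 0.524 ± 0.389 CPM (n = 6). The groups of 1 strain are neighbours that overlap, and only the step between the strains exceeds the spread of libraries. Gipr was highest in the left CBs of WKY at 15 ± 3.8 CPM (n = 6), then in the right CBs of WKY at 13.5 ± 4.14 CPM (n = 6). The left CBs of SHR had 8.9 ± 2.23 CPM (n = 6) and the right CBs 8.33 ± 1.63 CPM (n = 5). Thus the mean of Glp1r was higher on the right and that of Gipr on the left in both strains, although the sides overlapped in each case.

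Laterality did not enter the choice of the members and could be tested. The edgeR fits of side did not pair the CBs of a rat, whereas the sign-flip tests did. In WKY, left against right gave Glp1r a log2 fold change of -0.33 (SE 0.179, approximate 95% interval -0.68 to 0.02, adjusted p = 1 by edgeR's quasi-likelihood test), and 4 of 6 rats had more in the right CB. An exact sign-flip test over the 6 rats, two-sided, gave a mean difference of -0.32 ± 0.593 (SD, log2(CPM + 0.5)) and p = 0.25, where 0.0312 is the smallest p it can give. Much of this came from WKY37, whose left CB had 57 counts (exact Poisson 95% interval 43.2 to 73.9) and whose right CB had 169 (144 to 196). Without WKY37, the fitted change was -0.12 and the mean over the other 5 rats -0.10 ± 0.277 (exact sign-flip p = 0.5).

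For Gipr, left against right was 0.15 in WKY (SE 0.206, 95% interval -0.25 to 0.56, adjusted p = 1 by edgeR) and 0.10 in SHR (SE 0.192, -0.28 to 0.48, adjusted p = 0.959). The left CB was higher in 8 of 11 rats, by 0.16 ± 0.311 on the log2 scale, which did not pass the exact sign-flip test over rats (p = 0.133). Chga and Chgb leaned to the left as well, in 9 of 11 rats each, by 0.12 ± 0.236 and 0.16 ± 0.242 (exact sign-flip p = 0.118 and 0.0557). In SHR the fitted Gipr value turned to -0.06 without SHR36, whose left CB held 109 counts of Gipr and right CB 63. Over all genes, 0% were called by edgeR between sides in either strain, 0 of 14238 in WKY and 0 of 14200 in SHR, with 284 and 781 at an unadjusted p under 0.05. DESeq2 also called 0 in both, with 295 and 844. Glp1r fell under the count filter in SHR alone. Without the filter its side difference there was -0.30 (SE 0.676, adjusted p = 0.945), with an approximate 95% interval of -1.62 to 1.03, and a side difference was not detectable at this depth.

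The strain by side interaction, which asks whether the side difference itself differs between strains, was 0.03 for Glp1r (SE 0.68, approximate 95% interval -1.30 to 1.37) and -0.06 for Gipr (SE 0.291, -0.63 to 0.51). Both had an adjusted p of 0.999 by edgeR, and 0% of 14258 genes were called (438 at an unadjusted p under 0.05, and 0 called by DESeq2 with 474). The interval of Glp1r was the wider, with few counts on the SHR side.

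How the spread divides between rats and sides differed in the values of the 2 receptors. Over the 12 WKY libraries the coefficient of variation was 25.1% for Glp1r and 27.1% for Gipr, while counting alone would give 9.55% and 8.35%. Averaging the sides of each rat brought Glp1r down to 10.8% over 6 rats but left Gipr at 26.2%. WKY rats thus ran from 8.5 to 11.7 CPM for Glp1r and from 9.05 to 19.1 CPM for Gipr. The left and right CBs of a rat were related with r = -0.53 for Glp1r (rho = -0.37, exact permutation p = 0.299, n = 6) and r = 0.80 for Gipr (rho = 0.77, exact permutation p = 0.0694, n = 6). Neither passed after adjustment over the 27 correlations computed (adjusted p = 0.513 for both), and leaving out the 2 rats farthest from the median gave 0.66 and 0.38 (n = 4). These comparisons of sides were chosen after the values were seen, and the difference between the 2 correlations was not tested.

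Chga and Chgb, the granin genes of glomus cells, went the other way from the receptors. Chga averaged 602 ± 69.5 CPM over WKY rats against 776 ± 124 CPM over SHR, and Chgb 538 ± 53.1 against 725 ± 122 CPM (SD, n = 6 rats each). For each, 5 of 6 SHR rats were above all WKY rats. The log2 fold changes were 0.36 (SE 0.0915) and 0.40 (SE 0.0859). With the right CB of SHR34 added they were 0.23 (SE 0.239, adjusted p = 0.622 by edgeR) and 0.26 (SE 0.351, adjusted p = 0.72). Both thus stayed positive with a wider SE, and neither was called once that library was added. Glomus genes could be named here only from a table of genes higher in SHR, so the direction of both was fixed by that choice.

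Set against the same library's Chga counts, a ratio into which no scaling enters, both receptors separated the strains. Glp1r had 18.2 ± 1.93 counts per 1000 Chga counts in WKY rats and 0.773 ± 0.307 in SHR, a ratio of 23.5. Gipr had 23.6 ± 4.63 and 11.1 ± 2.66 counts per 1000 Chga counts, a ratio of 2.13, against 1.68 for its CPM. On this measure the lowest WKY rat had 18 and the highest SHR rat 15.9, so the overlap seen in Gipr CPM was gone. As background, 6.07% of genes had every SHR rat below every WKY rat per Chga count, and 14.9% per Chgb count, where Gipr separated as well (19.7 to 34.3 in WKY, 7.88 to 14.8 in SHR). In CPM that share was 3.68%. Chga and Chgb could be named only from genes higher in SHR, so dividing by them lowers the SHR values on average. The wider separation of Gipr is therefore in part built into the measure. The ratios also use the contrast that chose the receptors and are given without a test.

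**Figure D3:**
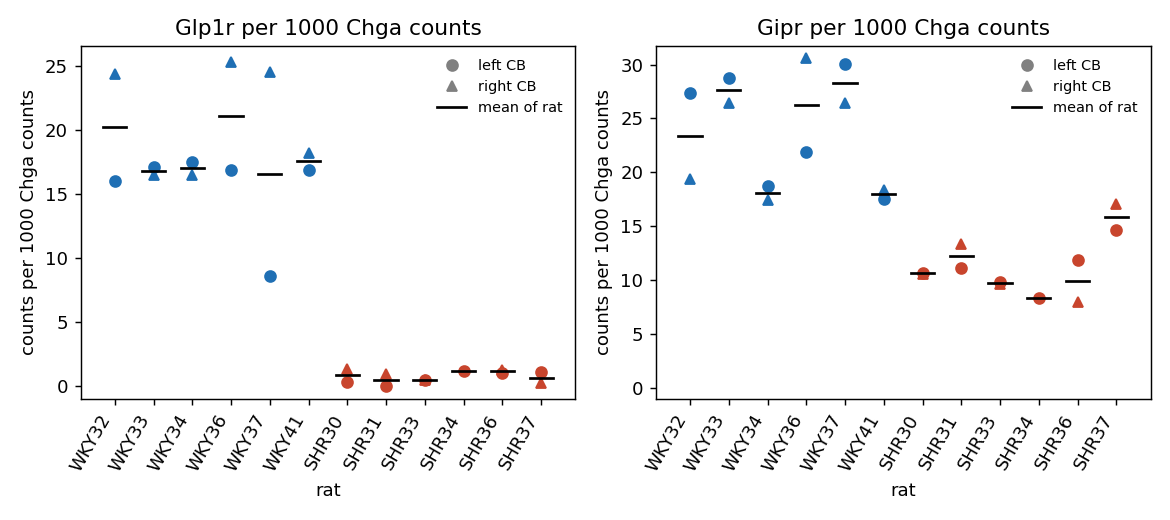
Counts of Glp1r (left panel) and Gipr (right panel) per 1000 Chga counts of the same library, for each rat. Circles are left CBs, triangles right CBs and black bars the mean of a rat, with WKY in blue and SHR in red; SHR34 is shown by its left CB. All SHR rats lie below all WKY rats in both panels, and the sides of WKY37 (8.61 on the left) are the widest apart for Glp1r.

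Per Gipr count, Glp1r also differed: 808 ± 166 Glp1r counts per 1000 Gipr counts in WKY and 76.2 ± 43 in SHR (SD, n = 6 rats). Within WKY this ratio ran from 286 in the left CB of WKY37 to 1257 among libraries. In SHR it ran from 0 to 159. These ranges did not overlap, but the strain contrast chose both receptors, so the ratio is a description given without a test. The share of all genes that separate the strains per Gipr count was not computed.

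Covariation with the glomus genes was then tested within strains, where the strain contrast plays no part. Over the 6 WKY rats, Gipr went with Chga at r = 0.73 (rho = 0.60, exact permutation p = 0.108 for r and 0.242 for rho) and with Chgb at r = 0.77 (rho = 0.54, p = 0.0653 and 0.297, exact). Adjusted over the 27 correlations, both had p = 0.513 (rho 1, exact permutation). WKY34 was the lowest rat for Gipr, Chga and Chgb alike, and without the 2 rats farthest from the median the values were 0.44 and 0.16 (n = 4). Over the 6 SHR rats the corresponding r was 0.20 (rho = 0.26, exact permutation p = 0.674, adjusted 0.758) for Chga and 0.13 (rho = 0.0286, exact permutation p = 0.818, adjusted 0.85) for Chgb. Without the 2 farthest rats these were 0.87 and -0.21, so the relation in SHR rests on which rats are kept.

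The difference between the sides of a rat leaves out what the rat and its strain share, and gives a further measure. Over 11 rats, the left minus right difference of Gipr went with that of Chga at r = 0.41 (rho = 0.28, permutation p = 0.203 and 0.404) and with that of Chgb at r = 0.35 (rho = 0.15, permutation p = 0.291 and 0.674), each with an adjusted p of 0.513 for r. Leaving out the 2 rats farthest from the median turned them to -0.29 and -0.44 (n = 9), so both rest on those rats. Within strains, r with Chga was 0.14 in WKY (n = 6) and 0.58 in SHR (n = 5, too few for a test), and r with Chgb was -0.0728 and 0.56.

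With the right CB of SHR34 added, the picture changed through that library alone. It held 0 counts of Gipr and 0 of Glp1r, beside the 437 Chga and 31 Chgb counts given above, and its left CB held 59 Gipr and 8 Glp1r counts. The side differences of Gipr then went with those of Chga and of Chgb at r = 0.97 each (n = 12, permutation p = 0.00874 and 0.0117, adjusted 0.0639 for both), whereas rho, which is less open to 1 far point, was 0.45 and 0.36. Over SHR rat means r was likewise 0.95 and 0.98, with exact permutation p = 0.0458 and 0.0306 (n = 6), adjusted 0.133 and 0.118. In this library the floor of 3 counts amounts to 6.86 per 1000 Chga counts, just under the 7.98 to 17.1 of Gipr in the other SHR libraries. Per 1000 Chgb counts it amounts to 96.8, above the 7.88 to 16.7 of Gipr there, so on that measure the 0 of Gipr could not be told from their level. For Glp1r the other SHR libraries had 0 to 1.3 per 1000 Chga counts, so its 0 could not be told from theirs either.

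**Figure D4:**
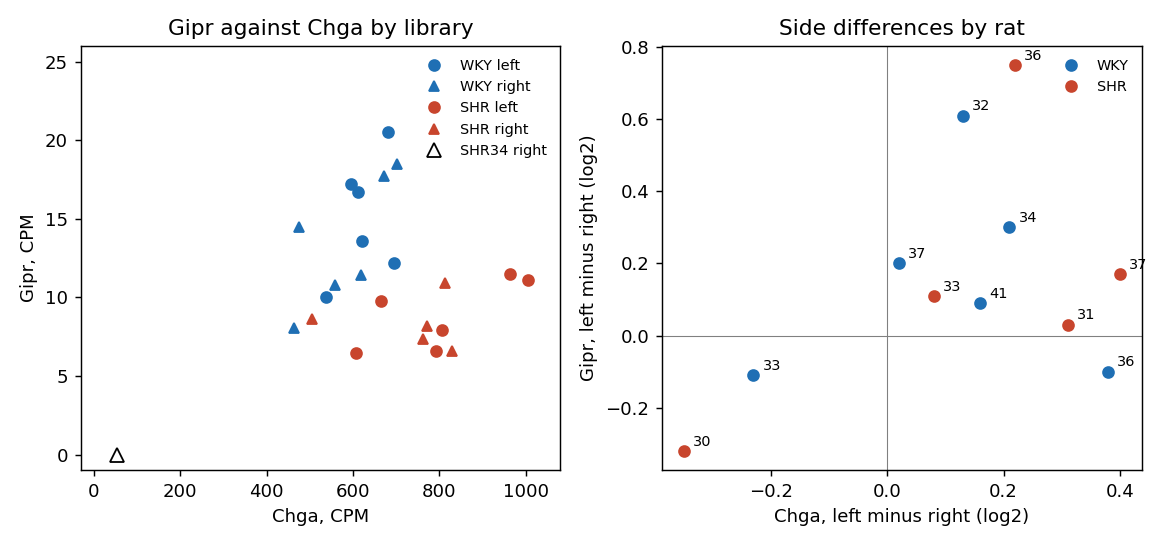
Gipr against Chga. The left panel plots CPM of each library, with the right CB of SHR34 (open triangle) at 54.1 Chga CPM and 0 Gipr CPM, far from the other 23; the right panel plots the left minus right difference on the log2(CPM + 0.5) scale for 11 rats, labelled by rat number, with lines at 0. Among the 23 libraries the ranges of the strains overlap on both axes, with the right CB of SHR37 (505 Chga and 8.62 Gipr CPM) lying near the CBs of WKY34, and the 11 rats of the right panel give r = 0.41.

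Glp1r showed no relation with the glomus genes that passed a test. In WKY rats r was 0.47 with Chga (rho = 0.14, exact permutation p = 0.374, adjusted 0.579) and 0.56 with Chgb (rho = 0.14, exact permutation p = 0.264, adjusted 0.513). Both turned negative, to -0.55 and -0.35, once WKY34 was left out, and so did r with Gipr, from 0.40 to -0.87. In SHR rats, where counts were near the floor, r was 0.30 and 0.58 (exact permutation p = 0.568 and 0.24) and r with Gipr -0.52 (p = 0.296, exact permutation). For the side differences of the 6 WKY rats, r was 0.27 with Chga, 0.20 with Chgb and -0.15 with Gipr (exact permutation p = 0.565, 0.661 and 0.764). With 6 rats, these tests can detect only a strong relation.

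As a description without a test, the genes most like each receptor were ranked by Pearson's r over libraries, which share rats and library composition. For Glp1r over the 12 WKY libraries, the closest paired symbols were LOC102546864 (r = 0.88), Htr6, a stimulatory serotonin receptor (0.83), and Tmem270 (0.83). Of the 14257 other genes, 33.1% lay above Chga (r = 0.14), 40.9% above Chgb (0.08) and 48.6% above Gipr (0.02). For Gipr over 23 libraries less the strain means, Tsen54, a subunit of the tRNA splicing endonuclease, had r = 0.84, behind ENSRNOG00000014819 (0.87) and ENSRNOG00000017737 (0.85). Chga (0.49) and Chgb (0.48) had 5.93% and 6.10% of genes above them, and Glp1r (-0.04) had 53.6%. In WKY libraries alone, Gipr had r = 0.64 with Chga and 0.63 with Chgb, with 3.34% and 3.51% of genes above them. In SHR libraries r was 0.38 and 0.42, with 18.2% and 15.8% above. Dbh, the glomus gene of noradrenaline synthesis, had r = 0.64 with Gipr in WKY libraries and -0.01 in SHR libraries, where 50.8% of genes lay above it. The place of glomus genes in the order for Gipr thus differed between the strains' libraries in value, a difference that was not tested.

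The other receptors and the signalling genes that could be named are drawn from a table of genes higher in SHR. Their direction was thus fixed by that choice and is no result. Of the 3 class B1 relatives, Sctr, the secretin receptor, averaged 2.03 ± 0.331 CPM over WKY rats and 4.57 ± 0.432 CPM over SHR (n = 6 rats each). Vipr2, a receptor of vasoactive intestinal peptide, averaged 3.13 ± 1.08 and 4.99 ± 1.05 CPM. Gcgr, the glucagon receptor, had 3.65 ± 0.99 and 4.97 ± 1.77 CPM. The first 2 passed the strain test (log2 fold change 1.16 and 0.73, SE 0.166 and 0.183), and Gcgr did not (0.45, SE 0.227, adjusted p = 0.172 by edgeR). Left against right, Sctr had -0.37 in WKY and 0.36 in SHR, and this interaction of 0.73 (SE 0.307) did not pass adjustment over all genes (adjusted p = 0.999 by edgeR).

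Among 8 receptors coupled to the stimulatory G protein, which share the cyclic AMP route with Glp1r and Gipr and include the 3 above, 6 were called higher in SHR, with a median of 0.59. Over all genes 10.2% were called higher, from which nothing can be read for lists drawn from that direction. The widest was Mc4r, the melanocortin receptor that restrains feeding in the brain, at 2.51 ± 0.459 CPM over WKY rats against 15.6 ± 4.73 CPM over SHR (log2 fold change 2.57, SE 0.188). Of 8 receptors coupled to the inhibitory G protein, which lower cyclic AMP, 5 were called higher, with a median of 0.57. They included Sstr2, a somatostatin receptor (0.92, SE 0.0902), and Oprl1, the nociceptin receptor (1.01, SE 0.241). All 3 signalling genes listed beside the receptors were called higher. Adcy5, an adenylyl cyclase, had 0.30 (SE 0.0685), and Akip1, a protein that binds protein kinase A, had 0.39 (SE 0.0827). Camk4, a calcium-dependent kinase, had 1.08 (SE 0.162). With all 24 libraries, 1 of the 3 class B1 genes and 2 of the 8 stimulatory receptors were called. So were 2 of the 8 inhibitory receptors and 2 of the 3 signalling genes.

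Levels of marker lists moved with strain as well, and all were drawn from the same table, so their direction too was fixed and the 10.2% of all genes called higher is no yardstick for them. The 7 glomus genes summed to 1428 ± 145 CPM in WKY rats (1205 to 1553) and 1975 ± 263 CPM in SHR (1652 to 2292), with 6 called higher. Smooth muscle genes, which mark vessel walls, summed to 696 ± 181 CPM in WKY (497 to 1013) and 985 ± 245 CPM in SHR (688 to 1264), with 2 of 9 called. Endothelial genes summed to 702 ± 55.6 and 880 ± 29.8 CPM (9 of 11 called) and lymphatic endothelial genes to 48.4 ± 4.23 and 62.5 ± 10.6 CPM (1 of 3). Fibroblast genes summed to 1515 ± 196 and 2055 ± 270 CPM (6 of 11), macrophage genes to 164 ± 21.2 and 251 ± 40.5 CPM (9 of 10) and adipocyte genes to 68.4 ± 9.08 and 92.8 ± 19.6 CPM (2 of 5). Mast cell genes were low in both, at 2.55 ± 0.708 and 10.9 ± 4.26 CPM (3 of 3). With all 24 libraries the genes called were 2 of 7 glomus, 2 of 9 smooth muscle, 3 of 11 endothelial, 1 of 3 lymphatic endothelial, 4 of 11 fibroblast, 7 of 10 macrophage, 1 of 5 adipocyte and 3 of 3 mast cell genes. The part of these lists in the receptor values was not tested.

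Within rats, the side difference of Gipr was set against that of each list's summed level over 11 rats. The r ran from -0.41 for smooth muscle (permutation p = 0.202) to 0.49 for lymphatic endothelium (permutation p = 0.122), with 0.42 for the glomus list (permutation p = 0.197). None of the 8 passed, with adjusted p-values from 0.513 to 0.867 over the 27 correlations (permutation).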

How the data were processed

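The authors aligned stranded, polyadenylated RNA reads with STAR and deposited raw counts per Ensembl gene from featureCounts (STAR, featureCounts, FastQC and DESeq2 are named in the submitters' processing notes). Neither versions nor the genome build are given in the sources used here, and the same holds for how strand and multi-mapped reads were handled. The deposited table holds 32623 genes in 24 columns, each mapped to a library by the code in its label. Samples were grouped by strain and side. The main set was the 23 libraries of the study's own table.

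Counts were fitted in R 4.3.3 with edgeR 4.0.16 (TMM, robust quasi-likelihood F-test) for genes with a mean normalized count above 10. The strain fit had side as a covariate, and the main fits of side and of the interaction had no term for the rat. P-values were adjusted by Benjamini-Hochberg, with a threshold of 0.05. The SE is the size of the log2 fold change over the square root of F. DESeq2 1.42.0, its size factors, no filter, all 24 libraries, counts summed per rat, each side alone, a block and leaving out each rat were alternatives. CPM were put on log2(CPM + 0.5) for correlations over rats and sign-flip tests, which were two-sided and exact under 10 rats (100000 random permutations otherwise). Tables and figures used pandas 2.3.3, scipy 1.17.1 and matplotlib 3.10.9.

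The fits were tested on simulated counts. For left against right in WKY, 79% of 100 genes changed by 1 on the log2 scale were found among 14208 tested, with 11 false calls over all genes. The share found was 77.8% for the sides in SHR, 74.5% for the interaction and 96.9% for strain. The simulated libraries shared no rat effect, and no change under 1 was simulated, so power for side values as small as those above is not known.

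The members, lists and tests were chosen with earlier results of these data known. Named genes were the 2 receptors, Chga and Chgb, the list members, the 5 genes most like each receptor and the ranks of Chga and Chgb in that order. Symbols came from the part of the study's strain table that was read here (1273 identifiers, all higher in SHR), which holds neither receptor. Their identifiers had been assigned by matching the study's printed strain statistics. In the count table Glp1r lies between Mdga1 and Abcg1 and Gipr between Six5 and Rtn2, as in RefSeq GRCr8. Genes with no symbol are not analysed here by name.

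The CBs of 1 number come from 1 rat and are paired by the animal. Their deviations from the mean of their strain, in which any side difference remains, correlated with a median of 0.0502 over 11 rats. Numbers 33, 34, 36 and 37 were each given to 1 rat of either strain and do not pair them (r of -0.226 to 0.0504). The labels give no batch.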

Additional observations from a re-analysis of the deposited data

Results flagged for a closer look

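In 46 sets of 5 or 6 values of Glp1r, Gipr, Chga, Chgb and their ratios, the highest or lowest value was compared with the rest by Dixon's criterion, and 3 lay farther out than its 95% limit. Chance alone marks about 1 set in 20, and the sets overlap.

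WKY34 had 8.5 CPM of Glp1r as the mean of its sides, below the other 5 WKY rats at 10.9 to 11.7 CPM, and it is also the rat whose removal turned the correlations of Glp1r with Chga, Chgb and Gipr negative in WKY. The right CB of SHR37 had 505 CPM of Chga, against 762 to 828 CPM in the other 4 right CBs of SHR, and its Gipr was 8.62 CPM, inside their range. The right CB of SHR34 had 3.84 CPM of Chgb, against 575 to 780 CPM in the other right CBs of SHR, and no counts of either receptor.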

How the results depend on the processing

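The strain values of Glp1r and Gipr kept their direction under every alternative run. Leaving out each rat gave -4.40 to -4.06 for Glp1r and -0.83 to -0.62 for Gipr. The number of genes called between strains moved from 2863 to 2041 (of 15130 tested) with counts summed per rat, which takes the animal as the unit. It was 1483 with all 24 libraries, 1270 in left CBs, 838 in right CBs and 1730 with the rat number as a block. The cause was not tested, though each side alone has fewer libraries. With the rat number as a block, rats whose number is not shared between the strains carry no strain difference and help only to fit side. The strain estimate of that fit thus rests on the rats with shared numbers, although a shared number does not pair animals. It is no alternative on all rats. Its log2 fold changes were -4.02 for Glp1r and -0.91 for Gipr.

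With the rat as a block, left against right was -0.32 for Glp1r and 0.17 for Gipr in WKY and 0.16 for Gipr in SHR. This pairing called 1 gene in SHR (0 without it) and turned the interaction of Glp1r to -0.20. With all 24 libraries the interaction of Gipr turned to 0.18 and the correlation of Glp1r with Gipr over SHR rat means to 0.20. The cause was not tested beyond the added library. Glp1r in SHR alone could be fitted between sides only without the filter, with its value given above, so its other alternatives were not run.

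Leaving out each rat gave side differences of -0.43 to -0.12 (Glp1r, WKY), 0.06 to 0.22 (Gipr, WKY) and -0.06 to 0.17 (Gipr, SHR), and interactions of -0.34 to 0.38 (Glp1r) and -0.22 to 0.03 (Gipr). Genes called between strains ran from 2193 to 2831, and 0 were called between sides or for the interaction. For rat means in WKY, r ran from 0.40 to 0.95 (Gipr with Chga), 0.47 to 0.91 (Gipr with Chgb), -0.55 to 0.72 (Glp1r with Chga), -0.35 to 0.76 (Glp1r with Chgb) and -0.87 to 0.69 (Glp1r with Gipr). In SHR the same pairs ran from -0.29 to 0.72, -0.13 to 0.57, -0.00341 to 0.72, 0.34 to 0.85 and -0.83 to -0.24. For side differences r ran from 0.12 to 0.57 (Gipr with Chga), -0.0316 to 0.48 (Gipr with Chgb), 0.16 to 0.64, 0.15 to 0.45 and -0.32 to -0.10 (Glp1r with Chga, Chgb and Gipr). No side difference, interaction or correlation was called, and the signs turned without WKY37, SHR33, SHR34 or SHR37 (interaction of Glp1r), WKY32, SHR30 or SHR34 (interaction of Gipr), SHR36 (Gipr between sides in SHR) and WKY34 (all 3 correlations of Glp1r over WKY rats). In SHR they turned without SHR31 (Gipr with Chga), SHR30 or SHR31 (Gipr with Chgb) and SHR36 (Glp1r with Chga), and for the side differences of Gipr and Chgb without SHR30. DESeq2's size factors, the CPM scale and a pseudocount of 1 changed no call of a correlation. Depth limits Glp1r in SHR, with 67 counts in all over 11 libraries. Tests over 6 rats see only wide effects, and CBs of 1 rat are not independent animals in the fits across libraries.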
